A study of Mus musculus with 4 samples.

Results

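The Hox, Fox, Pax and Lhx families encode transcription factors that pattern the embryo. The question asked of them was which are silent and which are on in mouse embryonic stem cells labelled UTX conditional knockout or UTX knockout. The members were all probe sets, groups of short array probes that together read a transcript, which the platform annotation assigns to a single gene with a Hoxa to Hoxd, Foxa to Foxr, Pax or Lhx symbol ending in its number. This took 164 of 45101 probe sets and 85 of 18194 named genes: 36 Fox, 33 Hox, 8 Pax and 8 Lhx genes. A further 5 probe sets name a member together with another gene and were left out.

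RNA was measured from 4 lines of mouse embryonic stem cells, 2 labelled UTX conditional knockout (cKO) and 2 labelled UTX knockout (KO), with 1 Affymetrix Mouse Genome 430 2.0 array each. All had been maintained on irradiated fibroblast feeders with leukaemia inhibitory factor, freed of feeders by passages on gelatin, and grown overnight on gelatin before collection. The labels give no strain or sex, and do not say how the conditional allele was built or whether it was intact in the cKO cells. They call the cKO lines independent but say nothing of separate cultures, so p-values here measure only the spread between these samples, which may be technical. The number of arrays, 2 per group, limits the precision of every value.

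Polycomb complexes keep developmental genes off in cells that do not use them. One of them places methyl groups on histone H3, chiefly at promoters rich in the dinucleotide CG, and UTX, the product of Kdm6a, is an enzyme that removes those groups. In embryonic stem cells the Hox clusters and many Pax, Lhx and Fox genes are textbook targets of this repression, while other Fox genes act in metabolism, cell division and signalling in many cell types.

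Promoters of 4 members are shown because they let a reader see CG-dense starts in genes called on and in silent genes. Foxd3 and Hoxa5 were called on here, and Hoxd10 and Lhx1 were silent. The 2 probe sets of Hoxa5 disagree on whether it is on, as given below. The promoters were chosen after the values were seen. Each is the 250 bases before the annotated start, from RefSeq (assembly GRCm38.p6), 5′ to 3′ on the gene's strand, with each CG in capitals.
Foxd3, chr4:99656049-99656298, plus strand: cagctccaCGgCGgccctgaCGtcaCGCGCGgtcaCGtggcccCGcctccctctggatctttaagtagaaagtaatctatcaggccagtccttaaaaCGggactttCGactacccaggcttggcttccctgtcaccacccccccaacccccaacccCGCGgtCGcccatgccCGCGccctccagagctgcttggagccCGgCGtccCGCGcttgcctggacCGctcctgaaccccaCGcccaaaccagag
Hoxa5, chr6:52204588-52204837, minus strand: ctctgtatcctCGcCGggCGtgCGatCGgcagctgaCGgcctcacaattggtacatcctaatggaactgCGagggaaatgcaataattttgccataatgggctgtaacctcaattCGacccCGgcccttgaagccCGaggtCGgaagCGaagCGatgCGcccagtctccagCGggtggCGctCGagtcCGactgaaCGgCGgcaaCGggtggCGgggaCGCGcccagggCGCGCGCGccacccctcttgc
Hoxd10, chr2:74691641-74691890, plus strand: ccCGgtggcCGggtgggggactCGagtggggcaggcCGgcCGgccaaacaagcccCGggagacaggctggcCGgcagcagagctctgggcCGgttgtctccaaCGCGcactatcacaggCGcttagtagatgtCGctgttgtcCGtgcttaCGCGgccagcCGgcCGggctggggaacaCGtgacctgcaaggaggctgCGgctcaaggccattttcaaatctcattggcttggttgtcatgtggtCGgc
Lhx1, chr11:84525535-84525784, minus strand: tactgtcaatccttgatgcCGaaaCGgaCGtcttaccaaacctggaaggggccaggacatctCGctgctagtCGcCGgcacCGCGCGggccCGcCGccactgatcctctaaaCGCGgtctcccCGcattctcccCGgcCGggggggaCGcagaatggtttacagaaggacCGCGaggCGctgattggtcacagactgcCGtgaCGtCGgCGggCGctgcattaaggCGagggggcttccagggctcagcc
The motif searched, CG, reads the same on both strands. Foxd3 held 21, Hoxa5 28, Hoxd10 20 and Lhx1 26. Of 14453 genes with a promoter in the table, 25.2% held at least as many as Foxd3, 11.2% as many as Hoxa5, 27.8% as many as Hoxd10 and 14.2% as many as Lhx1. Only 56 of 85 members (65.9%) were matched to a promoter, under the 80% needed, so a summary of CG content over the members is void. Foxh1 and Foxo4 are among the members without an entry.

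Signals are MAS5 values in arbitrary units on a linear scale, and each pair of values below gives line 1 and then line 2. The targeted gene Kdm6a read 658 and 415 in cKO against 265 and 198 in KO (log2 fold change -1.17, limma, adjusted p = 0.0880); whether its probes lie in the deleted part was not examined. All 8 listed markers of embryonic stem cells were on; 0 passed in limma, and 3 had an unadjusted p under 0.05, all higher in KO (Sox2 0.37, Zfp42 0.51 and Esrrb 0.94 as log2 fold changes). The summed signal of 12 feeder fibroblast markers was 3368 and 2171 in cKO against 1472 and 1491 in KO; 5 were on, 6 were above background on some arrays and Lum was on none. Of 7 tested, Thy1 fell (-1.20, limma, adjusted p = 0.0481) and all 7 had negative values. Among those not tested, Prrx1 read 30.7 and 31.0 in cKO against 60.1 and 53.8 in KO, higher in both KO lines. Twist2 was lower in both KO lines, and Lum, Pdgfrb and Twist1 overlapped between the groups. In RNA from whole cultures, fewer cells of a type and less RNA per cell cannot be told apart.

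Background was read from 83 probe sets of 75 odour, pheromone and taste receptor genes, taken as unused in these cells. Their 95th percentile, the background level, was 59.7 and 46.0 on the cKO arrays and 68.6 and 41.3 on the KO arrays, higher for line 1 in both groups. A gene was called on where one of its probe sets lay above this level on all 4 arrays, silent where none did on any array, and intermediate otherwise. These calls rest on the signals themselves and are descriptions with no test.

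Of the 85 members 22 were on, 20 intermediate and 43 silent. Among all 18194 genes 60.7% were on and 27.9% silent. Among the 75 receptor genes 1 was on and 65 silent, but the level was set from these genes. Their counts largely follow from that choice and are no comparison for the members. The families were unlike in makeup: 18 of 36 Fox genes were on and 10 silent, while 2 of 33 Hox genes were on and 21 silent. Pax and Lhx each had 1 of 8 on and 6 silent. At this level silence thus describes most Hox, Pax and Lhx genes but not the Fox family, and no histone mark was measured. For Pax and Lhx this depends on the level. With the 90th percentile as background, Pax3, Pax8, Lhx4, Lhx5 and Lhx9 were no longer silent. Counted by probe set, 48 of 164 lay above background on all arrays, 24 on some and 92 on none. Under other background levels, normalizations and sets of arrays, the genes on numbered 17 to 29 and the silent genes 31 to 59.

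**Figure D1:**
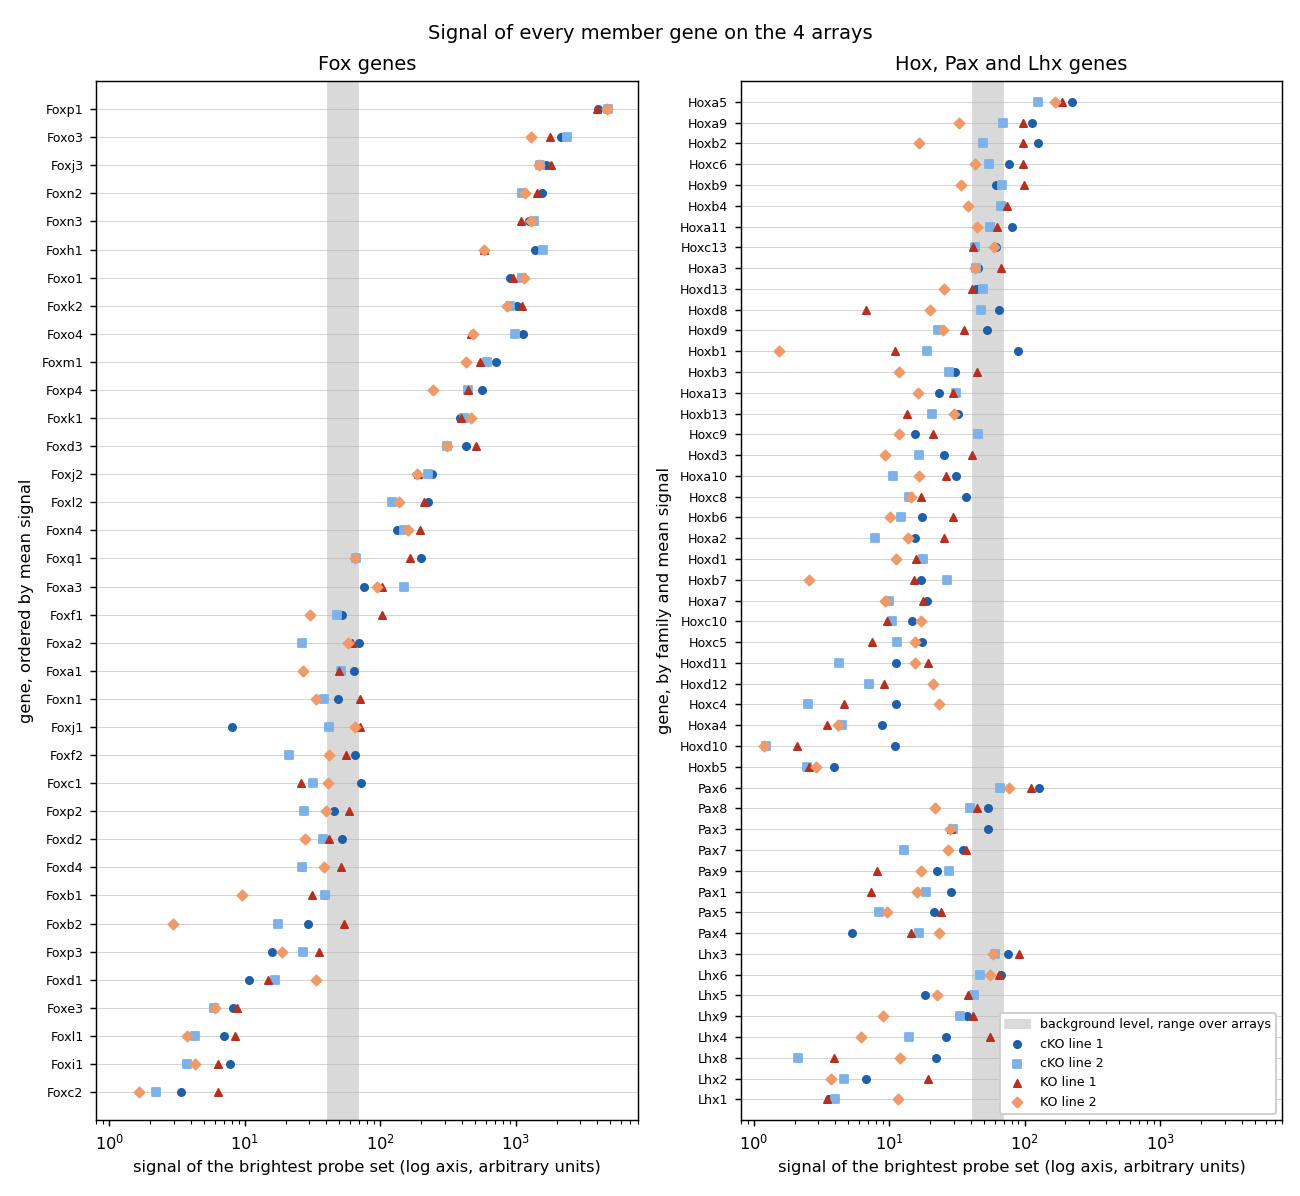
Signal of the brightest probe set of each of the 85 members (log axis, arbitrary units), 1 point per array, with genes grouped by family. The grey band spans the background levels of the 4 arrays, 41.3 to 68.6; many Fox genes stand clear of it, while most Hox, Pax and Lhx genes lie within or below it.

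The Hox genes, which lie in 4 clusters and set position along the body axis, were mostly near or under background. The median over the 48 Hox probe sets was 25 and 18.6 on the cKO arrays and 18.6 and 16.6 on the KO arrays, beside 11.4 and 9.71, then 16.3 and 7.44, for the receptor probe sets. Silent genes made up 5 of 9 in Hoxa, 5 of 9 in Hoxb, 5 of 7 in Hoxc and 6 of 8 in Hoxd. Hoxd10, a gene of the limb and lower spinal cord, read 11.1 and 1.23 in cKO against 2.07 and 1.19 in KO. Hoxb5 read 3.89 and 2.47 in cKO against 2.56 and 2.88 in KO. Both lay far under background in every line.

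**Figure D2:**
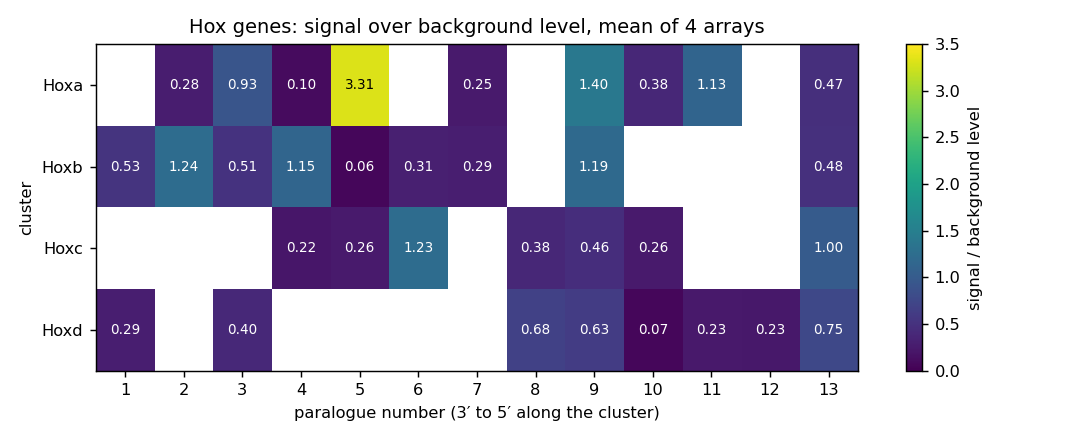
Signal of the brightest probe set of each of 33 Hox genes divided by the background level of its array, averaged over the 4 arrays, by cluster and paralogue number; blank cells hold no gene analysed here. Hoxa5 at 3.31 has the highest ratio, followed by Hoxa9 at 1.40 and Hoxb2 at 1.24, and most genes lie under 1.

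Hoxa5 and Hoxc6 were the Hox genes called on. Hoxa5, which acts in lung and axial skeleton, read 225 and 124 in cKO against 188 and 167 in KO, and the groups overlapped (log2 fold change 0.08, SE 0.32, limma, adjusted p = 0.956). That probe set is of the x type, whose probes can bind other transcripts, and the gene's second probe set read 34.0 and 33.4 against 21.0 and 21.2, under background on all arrays. The probe sets therefore disagree on whether Hoxa5 is on. Hoxc6 read 76.8 and 54.5 in cKO against 96.8 and 43.3 in KO, down to 1.05 times background in KO line 2. Its 2 other probe sets passed the level on 2 and 0 arrays. Hoxa11, just outside the call, read 80.9 and 55.4 in cKO against 62.1 and 44.4 in KO.

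Intermediate Hox genes were spread over the clusters. Hoxa9, a gene of posterior identity and blood progenitors, read 114 and 68.9 in cKO against 97.6 and 32.5 in KO, with KO line 2 alone under background. Hoxb2, a gene of the hindbrain, read 124 and 48.9 in cKO against 96.9 and 16.7 in KO, again with KO line 2 alone under background. Hoxb1, also of the hindbrain, read 89.6 and 18.9 in cKO against 11 and 1.54 in KO and passed the level in cKO line 1 alone. Hox genes above background numbered 10 and 9 on the cKO arrays and 7 and 5 on the KO arrays. The other families did not show this order: the counts were 22 and 20 against 21 and 23 for Fox, 1 and 1 against 2 and 1 for Pax, and 2 and 2 against 1 and 2 for Lhx. Of all genes 65.8% and 67.0% lay above background on the cKO arrays and 65.0% and 67.6% on the KO arrays. At this level the Hox counts do not overlap, but 2 against 2 arrays cannot give an exact two-sided permutation p below 0.333. The order was also lost at higher levels. With the 99th percentile, or the 40th percentile of all genes, as background, KO line 1 held the most Hox genes above the level. Fibroblasts are known to use Hox genes, feeder markers summed higher in cKO as given above, and their part in these counts was not tested.

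Pax genes act in eye, nervous system, muscle and kidney. Pax6, a regulator of eye and forebrain, was the one called on, at 128 and 66.0 in cKO against 112 and 77.2 in KO, as low as 1.44 times background in cKO line 2. The groups overlapped (log2 fold change 0.01, SE 0.41, limma, adjusted p = 0.995). Its 4 other probe sets passed the level on 3, 1, 0 and 0 arrays. Pax3, of neural crest and muscle precursors, was silent at 53.9 and 29.5 against 28.7 and 28.3. Pax9 was intermediate through 1 probe set, which read 12.6 and 8.10 against 74.6 and 6.58 and so passed in KO line 1 alone.

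Lhx genes encode LIM homeodomain factors of neurons, pituitary and limb. Lhx3, of pituitary and motor neurons, was on at 75.8 and 60.7 in cKO against 90.4 and 57.9 in KO, while its second probe set read 8.35 and 34.9 against 3.90 and 12, under background throughout. Lhx6, of cortical interneurons, was intermediate at 67.2 and 46.8 against 65.1 and 55.3. Lhx1, of the head organizer and kidney, was silent at 3.59 and 4.01 against 3.45 and 11.6, as were the other 5. Lhx3 and Hoxc6 were too dim for the test between groups.

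The 43 silent members had a median signal, by brightest probe set, of 17.6 and 14.1 on the cKO arrays and 19.3 and 12 on the KO arrays. The call itself fixes that these are low. The receptor genes had 12.3 and 11, then 18.6 and 9.17. The median log2 fold change (KO minus cKO) was -0.04 over silent members, 0.14 over receptor genes and 0.02 over all genes, with 20 of 43 above 0. It was -0.30 without KO line 1 and 0.17 without cKO line 1, and 24 of the 43 read higher in line 1 than in line 2 in both groups. A change that stays under background would not be detectable here.

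Being on in 1 genotype alone applied to 3 members. Foxj1, the regulator of motile cilia, read 8.04 and 41.7 in cKO against 71.2 and 65.6 in KO and passed the level in KO alone, as did 0.533% of all genes. Foxa1, a pioneer factor of endoderm, read 64.1 and 51.3 in cKO against 49.5 and 26.9 in KO and passed in cKO alone. So did Hoxd8 at 64.7 and 47.5 against 6.72 and 20.1, only 1.08 and 1.03 times background in cKO. The second Hoxd8 probe set read 24.7 and 18.4 against 15.8 and 6.24, under background throughout. Passing in cKO alone applied to 0.775% of all genes. Counts of 1 and 2 among 85 are too small to set against these shares. All 3 were too dim to test, and with the 99th percentile as background 0 members were on in either genotype alone. Without KO line 1 the counts were 3 in KO and 6 in cKO, and without KO line 2 they were 4 and 4. They were 1 and 3 without either cKO line.

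The Fox genes that were on held the highest member signals, although a signal depends on the probes as well as on the transcript. Foxp1, a repressor found in many tissues, read 4026 and 4783 in cKO against 3988 and 4747 in KO (log2 fold change -0.01, SE 0.15, limma, adjusted p = 0.985). Foxj3 read 1675 and 1510 against 1832 and 1473, Foxn2 1574 and 1107 against 1439 and 1177 and Foxn3, a repressor tied to the DNA damage checkpoint, 1253 and 1356 against 1100 and 1288. In each of these the groups overlapped. Foxk1 and Foxk2, regulators of metabolism, had log2 fold changes of 0.08 (SE 0.18) and 0.03 (SE 0.18). Foxd3, a factor of pluripotent cells and neural crest, read 430 and 311 in cKO against 509 and 311 in KO (0.12, SE 0.28, limma, adjusted p = 0.913). For Foxd3 line 1 was above line 2 in both groups and the genotypes overlapped, and Foxq1 showed the same order at 200 and 66.6 against 165 and 65.0.

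Other Fox genes were silent or dim. Foxc2, of mesenchyme and vessels, Foxi1, of inner ear and kidney, Foxl1 and the lens gene Foxe3 reached at most 8.79 on any array. Foxp3, of regulatory T cells, was silent too, with Foxb1, Foxb2, Foxd1, Foxd2 and Foxd4. Foxa2, of endoderm and floor plate, read 69.5 and 26.3 against 61.7 and 57.9 and passed the level in cKO line 1 and KO line 2. Its relative Foxa3, of liver, was on at 76.0 and 151 against 103 and 94.6. Foxl2, of the ovary, was on at 226 and 121 against 210 and 139 and Foxn4, of retinal progenitors, at 133 and 149 against 197 and 160. Neither passed the limma test (adjusted p = 0.980 and 0.671).

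KO was set against cKO with limma over 10916 genes above a filter level of 77.7, which 20 members entered, all of them on. At an adjusted p under 0.05, 2 of the 20 passed, Foxh1 and Foxo4, both lower in KO, where 2.21% of all genes tested passed, 1.57% as lower and 0.641% as higher. At an unadjusted p under 0.05 there were 4 members, 0 of them higher, beside 13.8% of all genes tested. The groups did not overlap for 7 of 20 members, 6 lower in KO, against 42.6% of all genes tested and 21.2% as lower. At least 2-fold apart in every pair of arrays were Foxh1 and Foxo4, beside 1.57% of all genes tested and 1.23% as lower. The median log2 fold change was -0.02 over these 20 and 0.01 over all genes tested.

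**Figure D3:**
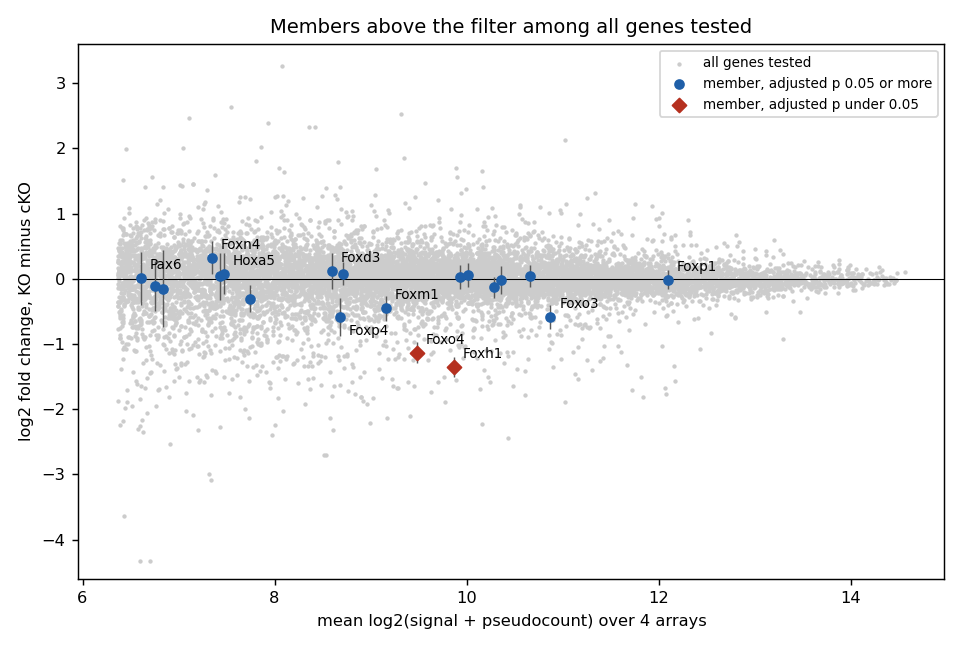
Log2 fold change (KO minus cKO) against mean log2 signal for the 20 tested members, with standard errors as bars, over all 10916 genes tested in grey. Foxh1 at -1.35 and Foxo4 at -1.13 passed the threshold; the other 18 lie between -0.59 and 0.32.

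Foxh1, the DNA-binding partner of SMAD proteins in Nodal signalling, fell in KO. The gene lies on chromosome 15, and the brightest of its 3 probe sets gave 1391 and 1592 in cKO against 580 and 582 in KO. The KO lines were close together and under both cKO lines. Mean signals were 1492 ± 142 for cKO against 581 ± 1.34 for KO (SD, n = 2 each), a 2.57-fold lower level in KO. The log2 fold change was -1.35 (SE 0.16, limma, adjusted p = 0.0128). Its other probe sets read 799 and 853 against 458 and 483 and 694 and 845 against 239 and 340, lower in KO with no overlap. With every probe set fitted, the former did not pass (-0.80, limma, adjusted p = 0.0911) and the latter did (-1.41, limma, adjusted p = 0.0381).

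Foxo4, an X-linked FOXO factor that insulin signalling keeps out of the nucleus, fell as well. It read 1127 and 983 in cKO against 467 and 487 in KO, with no overlap. Mean signals were 1055 ± 102 for cKO against 477 ± 14.6 for KO (SD, n = 2 each), 2.21-fold lower in KO, with a log2 fold change of -1.13 (SE 0.16, limma, adjusted p = 0.0226). The second Foxo4 probe set lay under background at 50.9 and 12.1 against 33.4 and 31.3, and the mean of both gave -0.43 (limma, adjusted p = 0.738). Without the trend of variance on signal both calls ended in limma, at adjusted p = 0.0501 for Foxh1 and 0.0624 for Foxo4. The feeder markers given above summed higher in both cKO lines, and their part in either fall was not tested.

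The related Foxo3 and Foxo1 did not pass. Foxo3 read 2174 and 2401 in cKO against 1785 and 1303 in KO, with no overlap and a log2 fold change of -0.58 (SE 0.18, limma, adjusted p = 0.213). It was -0.81 without KO line 1 (limma, adjusted p = 0.0434), -0.36 without KO line 2 (limma, adjusted p = 0.541) and -0.18 with the mean of probe sets (limma, adjusted p = 0.810). A second Foxo3 probe set overlapped between the groups at 751 and 639 against 704 and 636. Foxo1 read 906 and 1114 against 953 and 1155 (0.06, SE 0.18, limma, adjusted p = 0.933). Whether the FOXO genes differ from each other was not tested.

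Foxm1, a regulator of mitotic genes, read 711 and 618 in cKO against 542 and 429 in KO (-0.45, SE 0.19, limma, adjusted p = 0.346), and -0.62 to -0.29 with an array left out. Foxp4 read 561 and 443 against 441 and 246 (-0.59, SE 0.29, limma, adjusted p = 0.450), and its value depended on which KO line entered. It was -1.01 without KO line 1 (limma, adjusted p = 0.0376) and -0.18 without KO line 2 (limma, adjusted p = 0.854). Foxj2 read 241 and 225 against 189 and 187 (-0.30, SE 0.21, limma, adjusted p = 0.627). On their brightest probe sets all 3 were lower in both KO lines than in both cKO lines without passing the test. Each also had a dimmer probe set whose groups overlapped. With the mean of probe sets the log2 fold changes were -0.11 for Foxm1, -0.53 for Foxp4 and -0.37 for Foxj2.

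Probe sets of a gene could differ. Of 44 members with several, 13 had one that was on and another that was silent, among them Foxo1, Foxo3, Foxo4 and Foxj3. Of the 8 Foxp1 probe sets the 2 dimmest were higher in both KO lines. The first read 193 and 218 in cKO against 318 and 353 in KO (log2 fold change 0.70, limma with every probe set fitted, adjusted p = 0.238) and the other 61.8 and 79.3 against 110 and 102 (0.57, limma, adjusted p = 0.609). The other 6 had log2 fold changes of -0.19 to 0.07. With every probe set fitted on its own, 3 of 54 member probe sets passed, 2 of Foxh1 and 1 of Foxo4, against 1.22% of all probe sets tested. Where the probes lie in each transcript was not examined.

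**Figure D4:**
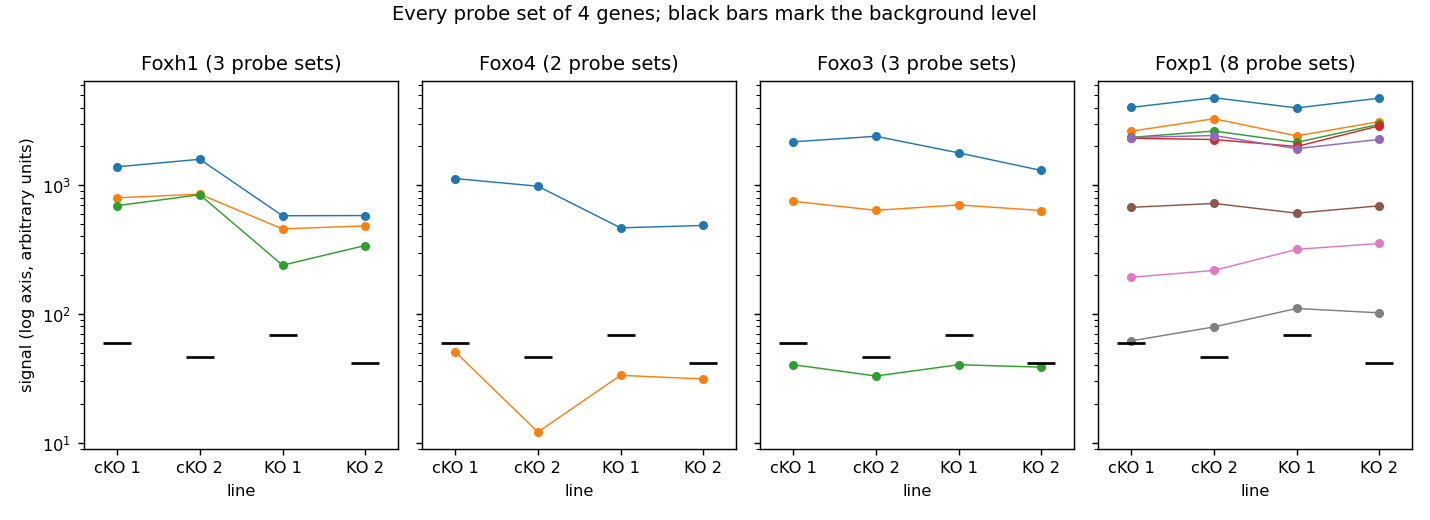
Signal of every probe set of Foxh1, Foxo4, Foxo3 and Foxp1 on each array (log axis, arbitrary units); lines join the points of a probe set and black bars mark the background level. All 3 Foxh1 probe sets are lower in both KO lines, 1 of 2 Foxo4 probe sets lies under background, and the 2 dimmest of 8 Foxp1 probe sets are higher in both KO lines.

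Partners of these factors were measured as lists. Of 15 HOX cofactors and regulators with a probe set 7 were tested and 0 passed in limma, 2 had an unadjusted p under 0.05, and the median log2 fold change was -0.07. Meis1, a HOX partner named after its values were seen, read 57.6 and 56.6 in cKO against 110 and 228 in KO (1.40, SE 0.40, limma, adjusted p = 0.160). Of 14 partners of LIM proteins 7 were tested, 1 fell and 0 rose, with a median of -0.17. This was Lmo4, a LIM-only protein, at 1018 and 1116 in cKO against 460 and 435 in KO (-1.24, SE 0.16, limma, adjusted p = 0.0176), with no overlap.

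The Polycomb machinery was on. Of 28 subunits with a probe set 27 were on and tested, 0 passed in limma, 3 had an unadjusted p under 0.05 and the median log2 fold change was 0.06. Ezh2, the methyltransferase, read 3413 and 3544 in cKO against 4001 and 4227 in KO (0.24, SE 0.12, limma, adjusted p = 0.448). Of 11 genes for UTX, JMJD3 and the MLL3 and MLL4 complexes all were on, 0 passed in limma and 3 had an unadjusted p under 0.05. These 3 were Kdm6a and Kdm6b, lower in KO, and Ash2l, higher in KO (0.27). Kdm6b, the gene for JMJD3, read 964 and 889 in cKO against 502 and 604 in KO (-0.75, SE 0.17, limma, adjusted p = 0.0872). Of 84 genes in other developmental families, such as Gata, Tbx, Nkx and Dlx, 22 were on, 26 intermediate and 36 silent, 20 were tested and 0 passed in limma, with 5 at an unadjusted p under 0.05 and a median of 0.10.

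Markers of differentiated types were partly present. Of 8 primitive endoderm markers 2 were on and tested. Lama1 rose (0.87, limma, adjusted p = 0.0427), while Dab2 read 618 and 399 in cKO against 222 and 169 in KO (-1.34, limma, adjusted p = 0.0573), and the median of the pair was -0.23. Afp and Ttr were silent. Of 6 mesendoderm markers 1 was on, and Gsc and Cer1 were silent. Of 7 neural markers 4 were on and tested, 3 with negative log2 fold changes and 1 with a positive one. Nes fell (-1.82, limma, adjusted p = 0.0322), whereas Map2 read 97.9 and 98.5 in cKO against 248 and 211 in KO (1.18, limma, adjusted p = 0.0665). The summed neural signal was 2602 and 2546 in cKO against 1838 and 1524 in KO. Of 5 trophoblast markers 3 were on and 0 of 3 tested passed in limma, 1 at an unadjusted p under 0.05. The part of any of these cells in the fall of Foxh1 and Foxo4 was not tested.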

How the data were processed

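The authors deposited 1 linear intensity per probe set for each of 4 arrays. The submitters' processing notes name MAS5; version and settings are not given in the sources used here. Trimming 2% from both ends left a mean of 500.0 on each array. Probe sets were named from the platform annotation, with symbols checked against RefSeq.

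Members and lists were chosen with earlier results of these data known. Signals were used as log2(signal + 4.79), the added value being the 10th percentile of all signals, which understates changes of dim genes. Each gene was represented by its probe set of highest mean log2 value, and the lowest 40% of 18194 genes were left out. A mean of linear signals was run first; the log2 mean was adopted after both had been seen. The groups were fitted by limma 3.58.1 (R 4.3.3) with a variance trend, 2 residual and 5.15 prior degrees of freedom, and Benjamini-Hochberg adjustment over 10916 genes. Python 3.11.15, numpy 2.4.6, pandas 2.3.3 and matplotlib 3.10.9 served for counts and plots.

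Named genes were members called, the 12 of highest signal, those on in 1 genotype alone (no probe set above background in the other), those 2-fold apart, the 4 next by p, the highest of each family, and 4 whose probe sets disagree. Other genes are examples chosen after their values were seen. Tested on 20 simulated sets of 10916 genes with 200 changed, the KO against cKO fit recovered 77.3% of 2-fold and 97.2% of 4-fold changes. In these sets 7.97% of calls were unchanged genes. The simulated noise was normal and independent between arrays, while line differences here correlated between groups (r = 0.52). The rates hold for that simpler setting and may differ for these arrays. Alternatives covered pseudocounts, filters, normalizations, the choice of probe set, variance models, background levels, fold limits, the line number as a block, and each array left out.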

Additional observations from a re-analysis of the deposited data

How the results depend on the processing

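The count of 2 members called, both lower, held within 1.5 times under 13 of 16 alternatives. It was 1 with the mean of probe sets, 0 without the variance trend, and 2 to 4 with an array left out; without KO line 1 Foxo3 and Foxp4 joined. A group left with 1 line was assumed to vary like the other. Members called higher were 0 under all 15 alternatives run. Members 2-fold apart, 2 as reported, were 1 with centring on the median, 0 at 3-fold and 2 with any array left out. Members on in KO alone, 1 as reported, were 0 with the 90th or 99th percentile or the 40th percentile of all genes as background, 2 with olfactory receptors alone, and 1 to 4 with an array left out. Those on in cKO alone, 2 as reported, were 4 with the 90th percentile, 0 with the 99th or the 40th of all genes, and 3 to 6 with an array left out. With the line number as a block (replicate block) Foxh1 stayed at -1.35 (limma, adjusted p = 0.00266) and Foxo4 at -1.13 (limma, adjusted p = 0.00541), with 2 members called and 1048 calls over all genes in place of 241. The labels do not pair the lines; line differences correlated between groups at r = 0.52 across 10916 genes and 0.08 across 85 members, which are not independent. Of 221 fold changes of named genes under alternatives 194 kept direction and side of the threshold, 2 passed it, 3 lost it and 22 changed sign, none of a called gene. The mean of probe sets gave -0.41 for Foxk1, 0.16 for Foxn2, 0.00026 for Foxn3, 0.12 for Foxp1 and -0.25 for Hoxa5. Pax6 was -0.044 with quantile normalization and -0.0059 with centring. With an array left out the ranges were -0.11 to 0.20 for Foxj3, -0.039 to 0.20 for Foxk1, -0.15 to 0.21 for Foxk2, -0.27 to 0.23 for Foxn2, -0.086 to 0.21 for Foxo1, -0.14 to 0.11 for Foxp1, -0.34 to 0.49 for Hoxa5 and -0.45 to 0.47 for Pax6. Over all genes calls numbered 28 without the trend, 147 without a filter, 129 with the mean of probe sets, 157 with the lowest 60% left out and 442 without KO line 1, and with centring 51 of 241 were higher in KO in place of 70. Choosing probe sets by linear mean and the looser rule for 1 genotype alone, both added after seeing the data, left the members' counts at 2, 1 and 2. Signals near background limit what can be said of dim members.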

Other observations

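Probe sets that name a member together with another gene were left out of the counts. The one shared by Hoxb8 and Hoxb7 read 47.1 and 20.5 on the cKO arrays and 22.5 and 14.9 on the KO arrays. Of 2 shared by Hoxd4 and Hoxd3, the brighter read 30.2 and 16.5 on the cKO arrays and 45.8 and 53.2 on the KO arrays, above background in KO line 2 alone. The one shared by Foxm1, Pebp1 and Tex52 read 783 and 657 on the cKO arrays and 713 and 765 on the KO arrays.

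Outside the 4 families, Nkx6-3 was named after its values were seen, at 27.7 and 17.3 in cKO against 160 and 174 in KO on its brightest probe set. It was too dim on average for the limma test.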
